A study of Mus musculus with 16 samples.

Results

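Chaperones and folding enzymes were measured by RNA sequencing in macrophages cultured from the bone marrow of aged C57BL/6 mice, 7 days after the end of a 24 hour exposure to beta-glucan. The deposited table lists 3071 genes, those that passed the authors' own test (adjusted p under 0.05) among 17130 tested, and 25 of them are protein-coding genes whose names mark them as heat shock proteins (Hsp), J-domain proteins (Dnaj), subunits of the cytosolic chaperonin (Cct2 to Cct8 and Tcp1), prefoldins, protein disulfide isomerases, FK506-binding proteins (Fkbp), cyclophilins, BAG proteins or Stip1. In the mouse annotation GENCODE M21, 123 protein-coding genes carry such names. Sorted by hand by where their proteins are known to work, the 25 listed genes were counted as 20 cytosolic, 4 mitochondrial and 1 of the endoplasmic reticulum (ER). The 20 include Dnajb13, known from cilia and sperm tails, and Dnajc13 and Fkbp15, known from endosomes. These are the only genes counted as cytosolic that had a negative value. Values of the 98 genes that are not listed are not analysed here, so nothing can be said of how far they moved; among them are the abundant chaperones Hspa8, Hsp90ab1, Hspa5 and Hsp90b1, the stress-induced Hspa1a and Hspa1b, the chaperonin subunit Cct2, the mitochondrial cochaperonin Hspe1, every protein disulfide isomerase and every cyclophilin.

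In both groups marrow cells were cultured with M-CSF, which drives them to become macrophages, at 10 ng/mL over 7 days. The 8 beta-glucan libraries, numbered 5, 6, 7, 8, 9, 10, 12 and 13, came from cells given beta-glucan at 10 µg/mL. This polysaccharide of fungal cell walls was derived here from Candida albicans. The 8 control libraries, numbered 2, 3, 5, 7, 9, 10, 12 and 13, came from cells given PBS. All cells then rested for 7 days. No genetic change is named for either group, and the age of each mouse is not given. The labels do not tell whether each library is a mouse or culture of its own, so the p-values cover the spread among these libraries alone, which could be technical.

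Chaperones bind unfolded or partly folded proteins and help them reach their native shape. In the cytosol, prefoldin and Hsp70 hand clients to the chaperonin TRiC, a closed barrel of related subunits that folds actin and tubulin, and Hsp70 passes other clients to Hsp90 through the bridging protein Stip1. J-domain proteins bring clients to Hsp70 and start its ATP cycle, and BAG proteins let it release nucleotide and client. Mitochondria have their own Hsp70, Hspa9, which pulls proteins in through the inner membrane, and their own chaperonin, Hspd1 (Hsp60). Many of these genes are switched on by heat shock factors, which bind inverted repeats of GAA and TTC.

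Promoter windows of the listed genes are shown where they hold such a repeat, since heat shock factor sites are what textbook chaperone genes share. RefSeq (GRCm38.p6) gave 27 windows for 20 of the 25 genes, each of 300 bases, from 250 before to 50 after an annotated start. Hsp90aa1, Hspa9, Cct4, Dnajc2 and Dnajc11 had no window and so were not searched. The windows were searched on both strands for GAANNTTC and TTCNNGAA, which overlap in longer repeats. Of the 27 windows, 5 held at least 1 of these motifs, in 5 genes, and 4946 of all 32851 mouse windows (15.1%) did. Other windows of Hspd1, Dnaja1 and Cct5, at further annotated starts, held neither motif. For Hspd1 the window without a motif, chr1:55088194-55088493, is the one at the outer start of the deposited gene. The printed windows of Hspd1 and Dnaja1 lie inside the deposited genes. The 5 windows with a motif follow 5′ to 3′ on the strand of the gene, with the motif letters in capitals.

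Hspd1, chr1:55087883-55088182 (minus strand): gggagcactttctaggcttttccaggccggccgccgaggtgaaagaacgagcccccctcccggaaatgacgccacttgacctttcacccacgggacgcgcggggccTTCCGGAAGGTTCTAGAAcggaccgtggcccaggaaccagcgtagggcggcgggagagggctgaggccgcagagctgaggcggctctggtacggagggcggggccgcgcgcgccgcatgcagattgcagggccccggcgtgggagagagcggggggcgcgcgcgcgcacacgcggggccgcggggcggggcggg

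Fkbp4, chr6:128438607-128438906 (minus strand): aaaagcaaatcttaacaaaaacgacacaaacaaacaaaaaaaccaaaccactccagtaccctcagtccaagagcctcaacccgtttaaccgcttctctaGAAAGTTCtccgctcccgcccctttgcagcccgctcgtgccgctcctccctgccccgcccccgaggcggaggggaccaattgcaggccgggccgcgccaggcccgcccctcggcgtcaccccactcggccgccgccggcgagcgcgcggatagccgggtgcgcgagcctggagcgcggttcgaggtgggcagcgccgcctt

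Dnaja1, chr4:40722218-40722517 (plus strand): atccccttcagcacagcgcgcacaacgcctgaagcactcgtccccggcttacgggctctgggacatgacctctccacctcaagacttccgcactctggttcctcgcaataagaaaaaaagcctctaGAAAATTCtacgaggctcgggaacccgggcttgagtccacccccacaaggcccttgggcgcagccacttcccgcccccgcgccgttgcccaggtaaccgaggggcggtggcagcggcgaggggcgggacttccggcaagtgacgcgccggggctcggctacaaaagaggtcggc

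Cct5, chr15:31601797-31602096 (minus strand): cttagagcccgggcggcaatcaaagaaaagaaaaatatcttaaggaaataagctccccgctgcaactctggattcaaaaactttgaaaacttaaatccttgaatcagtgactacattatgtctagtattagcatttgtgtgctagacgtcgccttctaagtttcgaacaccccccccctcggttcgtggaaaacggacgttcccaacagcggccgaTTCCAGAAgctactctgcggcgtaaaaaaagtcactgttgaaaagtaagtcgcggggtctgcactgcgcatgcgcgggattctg

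Bag3, chr7:128523333-128523632 (plus strand): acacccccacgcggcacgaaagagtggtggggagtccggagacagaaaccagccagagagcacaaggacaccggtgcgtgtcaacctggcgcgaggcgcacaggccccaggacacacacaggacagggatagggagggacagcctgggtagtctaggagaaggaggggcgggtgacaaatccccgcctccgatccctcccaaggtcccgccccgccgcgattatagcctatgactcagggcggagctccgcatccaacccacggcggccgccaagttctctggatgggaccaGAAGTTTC

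The printed Hspd1 window held a run of overlapping repeats from 144 to 127 bases before its annotated start, and with it the 3-unit element. In that element GAA, TTC and GAA, or TTC, GAA and TTC, are set 2 bases apart. Each form is the other read on the opposite strand, so a search on both strands finds them in the same windows. The element occurred in 198 of the 32851 windows (0.603%). Fkbp4 held GAANNTTC from 151 to 144 bases before the start, Dnaja1 held it from 124 to 117 before, and Bag3 from 43 to 50 after. Cct5 held TTCNNGAA from 34 to 27 bases before its start. The ER stress response element of ER chaperone genes, CCAAT and CCACG with 9 bases between them, occurred in 0 of the 27 windows and in 39 of all windows (0.119%). The CCAAT box, which that element contains, occurred in 12 of the 27 windows and in 37.4% of all windows. Letters in a window do not show that a factor binds there.

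Most of the listed chaperone and folding genes were higher in beta-glucan libraries than in control libraries. All 6 listed TRiC subunits rose, as did the stress-inducible Hsp90 gene Hsp90aa1, its partners Stip1 and Fkbp4, and all 4 listed mitochondrial genes. The authors' deposited table gave 21 of the 25 as higher and 4 as lower, beside 35.1% and 64.9% of all listed genes, which were themselves 17.9% of the genes tested. In edgeR's quasi-likelihood test with Benjamini-Hochberg adjustment over 17130 genes, 18 rose, 2 fell and 5 did not pass. Of the 2738 listed genes that passed the count filter 68.7% were called, 25.9% as higher and 42.8% as lower, whereas the shares of these 25 genes, all of which passed the filter, were 72% higher and 8% lower. The 25 were also more abundant, with a median of 2239 normalized counts beside 431 over all 3071 listed genes. Past the filter, listed genes of positive value had a median of 763 and those of negative value 442. The part of abundance in these shares was not tested. The listed genes had already passed the authors' test in the same libraries, so the edgeR p-values are too small as an independent test. The median log2 fold change was 0.36 over the 25 genes and -0.41 over the listed genes. Within the 21 positive ones it was 0.40, beside 0.42 over all listed genes with a positive value, and the 21 values ran from 0.21 to 0.58. In bulk RNA, more cells with a high level and more RNA per cell cannot be told apart.

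**Figure D1:**
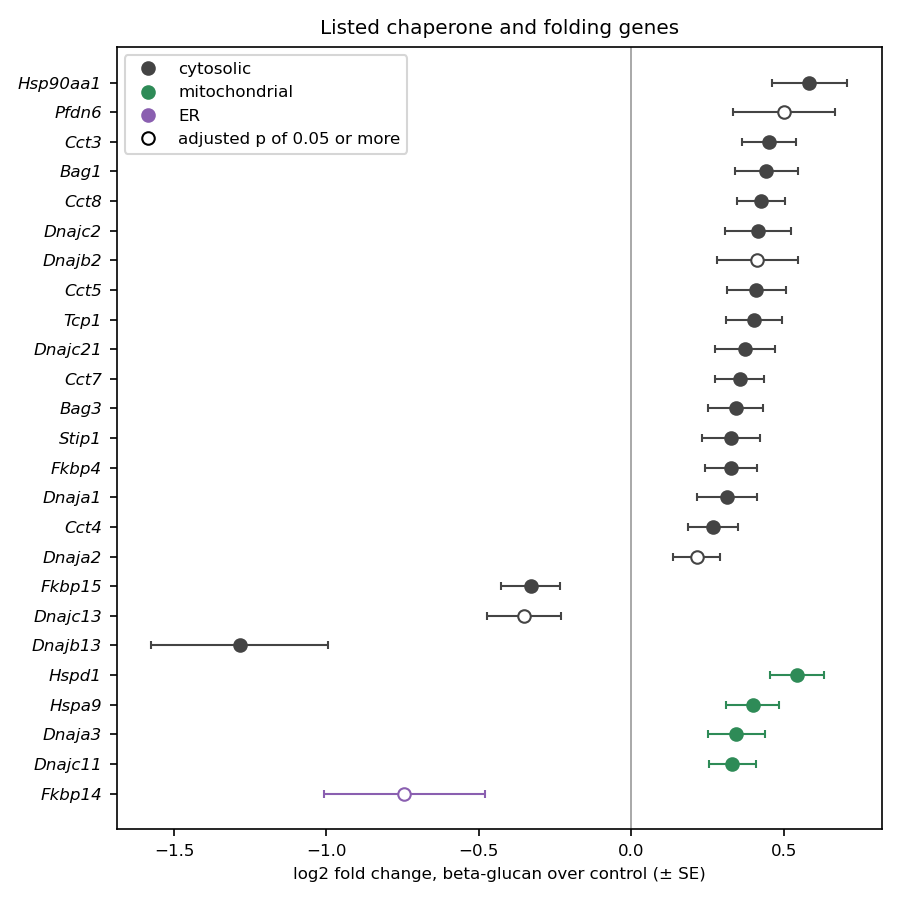
Log2 fold change of beta-glucan over control (x axis) for each of the 25 listed chaperone and folding genes (rows), with bars of 1 SE from edgeR. Colours give the compartment and open points an adjusted p of 0.05 or more; the 21 positive values lie between 0.21 and 0.58, and Dnajb13 at -1.28 is the lowest.

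TRiC was the most completely represented family, with 6 of 9 genes in GENCODE M21 that the names cover. Cct8 (ENSMUSG00000025613, chr16:87483326-87495873, mm10, minus strand) had 3424, 3652 and 3996 normalized counts as the lowest, median and highest of the beta-glucan libraries, against 2288, 2711 and 3275 of the control libraries. The groups did not overlap, and the highest control was number 12. The log2 fold change was 0.42 ± 0.08 (SE, edgeR adjusted p = 0.00312).

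Cct3 (ENSMUSG00000001416, chr3:88297116-88321767, plus strand) had 2717, 2957 and 3290 normalized counts in beta-glucan libraries, against 1812, 2124 and 2592 in control libraries, again with no overlap. Its log2 fold change was 0.45 ± 0.09 (edgeR adjusted p = 0.00406). Tcp1, the founding subunit (ENSMUSG00000068039, chr17:12915701-12925067, plus strand), had 2819, 3209 and 4030 in beta-glucan libraries and 2217, 2484 and 2881 in control libraries. Of the beta-glucan libraries 7 lay above every control, and the log2 fold change was 0.40 ± 0.09 (edgeR adjusted p = 0.00910).

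Cct5 was the third subunit without overlap, at 3242 to 4824 normalized counts in beta-glucan libraries and 2528 to 3201 in control libraries (log2 fold change 0.41 ± 0.10, edgeR adjusted p = 0.0120). Cct7 (0.36 ± 0.08, edgeR adjusted p = 0.00915) and Cct4 (0.27 ± 0.08, edgeR adjusted p = 0.0423) rose with overlapping ranges. The groups did not overlap in 7.52% of the listed genes, with beta-glucan higher in 2.67% and lower in 4.85%, and in 4 of the 25 genes here, these 3 subunits and Hspd1, all with beta-glucan higher. The 6 log2 fold changes lay within 0.27 to 0.45, around a median of 0.41. A subunit kept out because the deposited table types it as a processed transcript, Cct6a, had 3108 to 4096 normalized counts in beta-glucan libraries and 2285 to 2804 in control libraries, with no overlap and a log2 fold change of 0.53 ± 0.08 (edgeR adjusted p = 0.00120). With it, 7 TRiC genes are listed, all of them higher.

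The TRiC subunits also varied together once the difference between the groups was taken off, though neither group was examined alone. Over the 16 libraries, after the mean of each group was taken off, the 15 pairs of subunits had Pearson's r from 0.36 to 0.85, with a median of 0.60. Pairs of the 21 positive genes had a median of 0.38 and pairs of listed genes at large 0.017. The listed genes at large mix 1069 of positive and 1669 of negative value, and other positive genes were not compared. Nothing particular to TRiC can therefore be read from these medians. All values share the same libraries and size factors, so these are descriptions only. Per kilobase of gene length, the deposited FPKM levels of the subunits differed. Cct5 averaged 79.9 ± 12.7 FPKM in beta-glucan libraries and 60.1 ± 5.17 in control libraries (SD, n = 8 each), whereas Cct3 averaged 25.9 ± 1.88 and Cct7 27.2 ± 3.01 in beta-glucan libraries, against 19.0 ± 2.62 and 21.2 ± 1.62 in control libraries. Those FPKM values depend on the gene length the authors used, and cannot be read as subunit ratios in the complex.

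**Figure D2:**
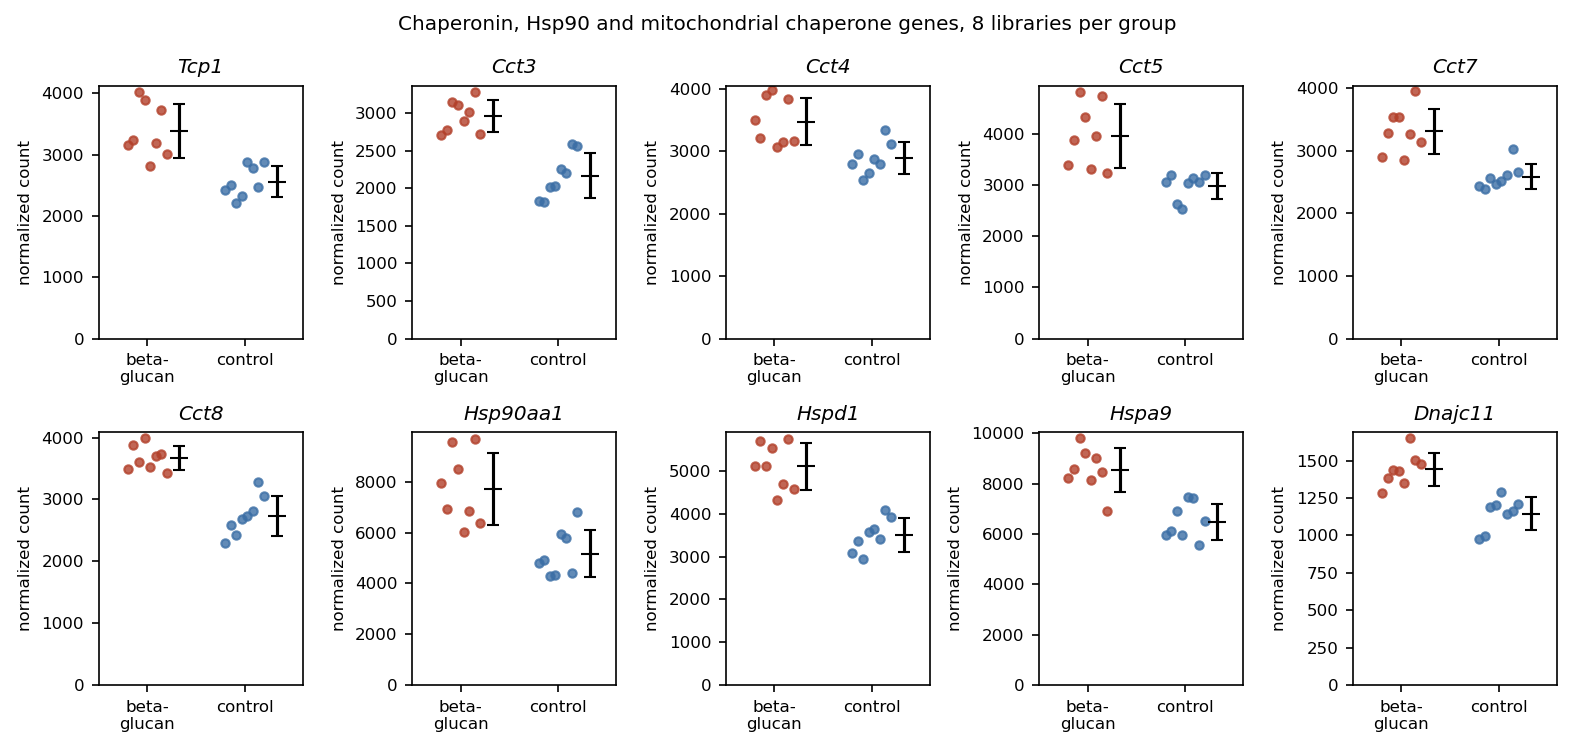
Normalized counts (y axis, from 0) of the 6 TRiC subunits, Hsp90aa1, Hspd1, Hspa9 and Dnajc11 (panels), 1 point per library, with beta-glucan left of control; the black line and bar beside each group give its mean and SD over 8 libraries. All 8 beta-glucan points of Cct3, Cct5, Cct8 and Hspd1 lie above all 8 control points, and in the other panels the groups overlap.

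Of the cytosolic Hsp90 genes, 1 is listed. Hsp90aa1 (ENSMUSG00000021270, chr12:110690605-110702728, minus strand) had 6024, 7438 and 9675 normalized counts in beta-glucan libraries, against 4276, 4861 and 6817 in control libraries. Of the beta-glucan libraries 6 lay above every control, the highest of which was number 13. Its log2 fold change, 0.58 ± 0.12 (edgeR adjusted p = 0.00667), was the largest of the 25 in the positive direction. Stip1, which links Hsp70 to Hsp90, had 1999 to 2929 in beta-glucan libraries and 1611 to 2098 in control libraries (0.33 ± 0.09, edgeR adjusted p = 0.0323). Fkbp4, a peptidyl-prolyl isomerase of the Hsp90 and steroid receptor complex, had 1362 to 1893 in beta-glucan libraries and 1203 to 1501 in control libraries (0.33 ± 0.09, edgeR adjusted p = 0.0205).

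Both listed BAG genes rose. Bag1 had 2200 to 3601 normalized counts in beta-glucan libraries and 1793 to 2664 in control libraries (0.44 ± 0.10, edgeR adjusted p = 0.0112). Bag3, which couples Hsp70 to selective autophagy, had 1226 to 1725 in beta-glucan libraries and 936 to 1375 in control libraries (0.34 ± 0.09, edgeR adjusted p = 0.0218). Bag1 was the highest of the 25 per length, at 125 ± 18.7 FPKM in beta-glucan libraries and 92.1 ± 11.6 in control libraries (SD, n = 8 each).

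J-domain proteins were the largest family, with 9 listed of 45 in the annotation. In the cytosol Dnaja1, a general Hsp70 partner, rose (0.31 ± 0.10, edgeR adjusted p = 0.0460), as did Dnajc2, which works with Hsp70 at the ribosome (0.41 ± 0.11, edgeR adjusted p = 0.0207), and Dnajc21, a factor of ribosome assembly (0.37 ± 0.10, edgeR adjusted p = 0.0220). Dnajc21 was the lowest of these at 303 to 436 normalized counts in beta-glucan libraries and 228 to 330 in control libraries. The other listed cytosolic genes with a positive value did not pass the test: Dnaja2 had 0.21 ± 0.08 (adjusted p = 0.0811), Dnajb2 0.41 ± 0.13 (adjusted p = 0.0510) and the prefoldin subunit Pfdn6 0.50 ± 0.17 (adjusted p = 0.0591). For Pfdn6 the beta-glucan libraries spanned 343 to 645 normalized counts and the control libraries 249 to 541, with control 12 the highest control. Dnaja2 was the gene nearest the threshold for being listed, at an adjusted p of 0.0448 in the authors' deposited table, and Dnajc13 came next at 0.0383; values on the other side of that threshold are not analysed here.

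All 4 listed mitochondrial genes rose, and these were 4 of the 12 that the names cover in the annotation. Hspd1, the chaperonin of the matrix (ENSMUSG00000025980, chr1:55077835-55088243, minus strand), had 4324, 5122 and 5757 normalized counts in beta-glucan libraries, against 2939, 3500 and 4085 in control libraries. The groups did not overlap, and its log2 fold change of 0.54 ± 0.09 had the smallest p of the 25 (edgeR adjusted p = 0.00152). Its printed window carries the 3-unit heat shock repeat and its window at the outer start does not, and any part of the repeat in the rise was not tested.

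Hspa9, the mitochondrial Hsp70 (ENSMUSG00000024359, chr18:34937414-34954357, minus strand), had 6895, 8523 and 9819 normalized counts in beta-glucan libraries and 5548, 6324 and 7473 in control libraries. Of the beta-glucan libraries 7 lay above every control (0.40 ± 0.09, edgeR adjusted p = 0.00778). Dnajc11, a J-domain protein of the mitochondrial membranes (ENSMUSG00000039768, chr4:151933691-151982137, plus strand), had 1286, 1435 and 1655 in beta-glucan libraries and 977, 1175 and 1293 in control libraries (0.33 ± 0.08, edgeR adjusted p = 0.0110). Here too 7 beta-glucan libraries were above all controls.

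Dnaja3, the J-domain partner of Hspa9 in the matrix (ENSMUSG00000004069, chr16:4639989-4707695, plus strand), had 1009, 1167 and 1352 normalized counts in beta-glucan libraries and 737, 918 and 1072 in control libraries (0.34 ± 0.09, edgeR adjusted p = 0.0235), with 5 beta-glucan libraries above every control. In GENCODE M21 it overlaps Vasn on the same strand and Coro7 on the other, and both of these are listed with values in the other direction (-2.21 and -0.56), so its value was opposite in sign to theirs.

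The listed genes also included 4 with a negative value. Dnajb13, a J-domain protein known from cilia and sperm tails (ENSMUSG00000030708, chr7:100501716-100514960, minus strand), had 28.6, 42.0 and 60.2 normalized counts in beta-glucan libraries, against 57.6, 74.3 and 213 in control libraries. Its log2 fold change was -1.28 ± 0.29 (edgeR adjusted p = 0.00910), and 7 beta-glucan libraries lay below every control. Controls 2, 3 and 5 had 171, 133 and 213, and the other controls stayed at or below 77.7. Without controls 2 and 3 the fold change was -1.06 and the call ended (adjusted p = 0.0568).

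Fkbp15, an endosomal protein with an FKBP domain (ENSMUSG00000066151, chr4:62300342-62360548, minus strand), had 4777, 5162 and 6044 normalized counts in beta-glucan libraries, against 4606, 6845 and 7935 in control libraries. All 8 beta-glucan libraries were below the control median, and control 12 was the lowest library of all. It fell by 0.33 ± 0.10 on the log2 scale (edgeR adjusted p = 0.0347), a call kept in 4 of 16 fits, each with 1 library less (those without beta-glucan 7, beta-glucan 12, control 12 or control 13).

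Dnajc13, a J-domain protein of endosomes (ENSMUSG00000032560, chr9:104151282-104262930, minus strand), had 1836, 1952 and 2223 normalized counts in beta-glucan libraries, against 1478, 2630 and 3327 in control libraries (-0.35 ± 0.12, adjusted p = 0.0691); control 12 was again the lowest. Of the 16 edgeR fits with 1 library left out, the gene passed in the 1 without control 12, and it passed with DESeq2 on all 16 libraries (adjusted p = 0.0410). Fkbp14, an isomerase of the ER that acts on collagen (ENSMUSG00000038074, chr6:54577604-54597308, minus strand), was the only ER gene of 26 to be listed. It had 7.27, 21.1 and 33.0 normalized counts in beta-glucan libraries, against 28.5, 36.2 and 47.2 in control libraries (-0.74 ± 0.26, adjusted p = 0.0764). At 0.290 ± 0.112 FPKM in beta-glucan libraries and 0.487 ± 0.0831 in control libraries (SD, n = 8 each) it was the least abundant of the 25.

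**Figure D3:**
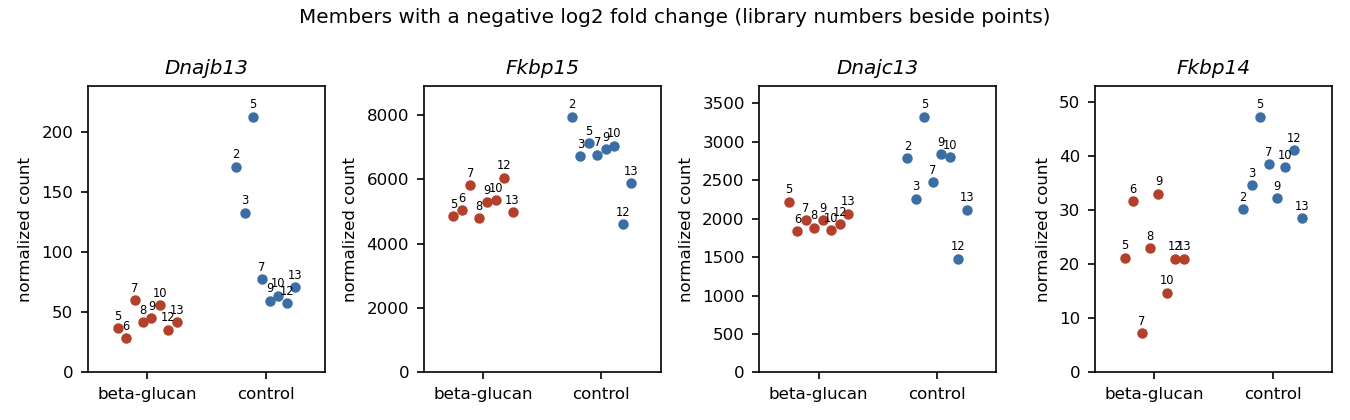
Normalized counts (y axis, from 0) of the 4 genes with a negative log2 fold change, 1 point per library with its number, beta-glucan left of control. Controls 2, 3 and 5 stand above the rest for Dnajb13 at 171, 133 and 213, and control 12 is the lowest library for Fkbp15 and Dnajc13.

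The groups can also be read library by library. Averaged over the 6 TRiC subunits as log2(normalized count + 1), each gene centred on its mean over the 16 libraries, beta-glucan libraries ran from 0.03 to 0.36 and control libraries from -0.33 to -0.03. Controls 12 and 13, at -0.03 and -0.05, were the controls nearest to the beta-glucan libraries, and the other 6 lay at -0.15 or below. Averaged over the mitochondrial genes, the beta-glucan libraries ran from 0.07 to 0.32 and the control libraries from -0.40 to -0.06, with controls 2 and 3 at -0.40 and -0.33. For 19 of the 21 positive genes all 8 beta-glucan libraries lay above the control median. The 21 were taken for a positive value in these same libraries, after the authors' test. The same share over all listed genes was not computed, so nothing particular to chaperones can be read from this count.

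**Figure D4:**
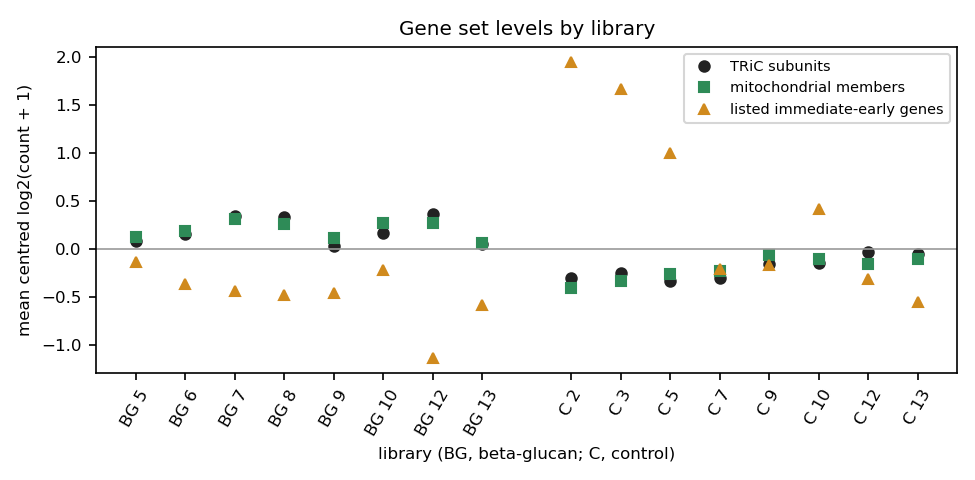
Mean centred log2(normalized count + 1) (y axis) in each library (x axis; BG, beta-glucan, left of C, control) for the TRiC subunits, the listed mitochondrial chaperone genes and the listed immediate-early genes (symbols). TRiC lies between 0.03 and 0.36 in beta-glucan libraries and between -0.33 and -0.03 in control libraries, and the immediate-early genes are highest in controls 2, 3 and 5.

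Some library features overlapped between the groups and others differed. Reads on listed genes came to 4382665 to 5415917 in beta-glucan libraries and to 4587031 to 5600727 in control libraries. Size factors ran from 0.909 to 1.09 in beta-glucan libraries and from 0.864 to 1.16 in control libraries. Immediate-early genes, which switch on within minutes of handling or stimulation, averaged -1.13 to -0.13 in beta-glucan libraries and -0.55 to 1.95 in control libraries on the same centred log2 scale, and controls 2, 3 and 5 stood highest (1.95, 1.66 and 1.01). Of 10 macrophage markers 5 are listed, and their summed normalized counts ran from 74529 to 84808 in beta-glucan libraries and from 85337 to 158632 in control libraries. The M-CSF receptor gene Csf1r fell (-0.68 ± 0.12, edgeR adjusted p = 0.00276), as did Adgre1, the F4/80 antigen (-0.56 ± 0.10, edgeR adjusted p = 0.00250), whereas Cd14, the lipopolysaccharide co-receptor gene, rose (0.52 ± 0.14, edgeR adjusted p = 0.0249); of the 5 markers 3 fell and 1 rose. The lowest libraries had 38483 (Csf1r) and 19558 (Adgre1) normalized counts. Among 8 lists of markers of other cell types, 2 genes are listed. The B cell gene Cd79b had at most 29.6 normalized counts in beta-glucan libraries and 45.8 in control libraries, and the endothelial gene Kdr at most 155 in beta-glucan libraries and 87.4 in control libraries. No looked-up marker of neutrophils, dendritic cells, T or NK cells, mast cells, fibroblasts or erythroid cells is listed. The list holds only genes that differed between the groups, so absence from it does not tell whether such cells were present. The part of these library features in the results was not tested.

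Leaving out controls 2 and 3, 7 of the 25 genes rose (Cct3, Cct5, Cct8, Tcp1, Hsp90aa1, Hspa9 and Hspd1) and 0 fell, beside 6.7% and 16.2% of 2748 listed genes. Adjusted p-values of the 7 ran from 0.0119 (Hspd1) to 0.0462 (Tcp1). All 25 had an unadjusted p under 0.05 in this edgeR fit, as did 2588 of the 2748 listed genes. Such a count is largely set by the authors' selection on p in the same libraries. The median log2 fold change of the 25 was 0.33 against 0.36 with all libraries, beside -0.36 over the listed genes in this fit. Genes of positive value were shorter than those of negative value among the listed genes (median deposited gene length 3335 and 5872 bases), and the 25 genes followed that order (3931 bases for the 21 positive and 5832 for the 4 negative). With each library's trend with gene length removed, 11 of the 25 rose and 1 fell, beside 15.2% and 31.2% of listed genes, and the median log2 fold change was 0.23. Of the TRiC subunits Cct3 (0.57), Cct7 (0.50), Tcp1 (0.41) and Cct8 (0.23) passed there, Cct5 (0.17) and Cct4 (0.20) did not, and neither did Bag1 (0.13), Bag3 (0.09), Fkbp4 (0.09), Stip1 (0.03) and Dnaja3 (0.24). The values of Dnaja2 and Dnajc13, neither of them called, changed sign. Without controls 12 and 13, 19 of the 25 rose and 3 fell, beside 31.3% and 51.7% of listed genes, and with TMM factors from the listed genes 21 rose and 1 fell, beside 37.9% and 19.3%.

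**Figure D5:**
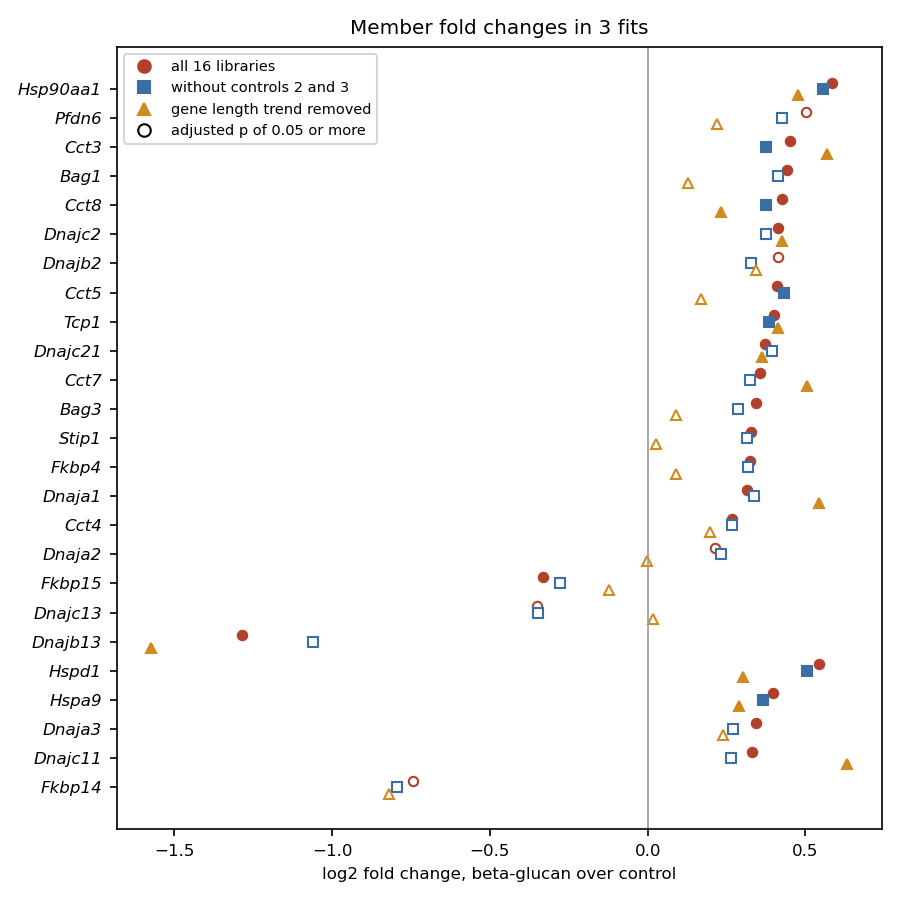
Log2 fold change of beta-glucan over control (x axis) for each gene (rows) with all 16 libraries, without controls 2 and 3, and with the gene length trend of each library removed; open symbols mark an adjusted p of 0.05 or more. Values without controls 2 and 3 stay near those of all libraries, whereas removing the length trend moves Stip1 to 0.03 and Dnajc11 to 0.63.

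Of the 20 called genes, 15 stayed called whichever of the 16 libraries was left out, among them Cct3, Cct5, Cct7, Cct8, Tcp1, Hsp90aa1, Hspd1 and Hspa9. Dnaja3 was lost without beta-glucan 7, control 2 or control 3, and Stip1 was lost without beta-glucan 7 or 12 or control 2, 3, 5 or 7. Cct4 was called in 6 of the 16 fits (those without beta-glucan 6, 9, 10 or 13 or control 12 or 13) and Dnaja1 in 4 (those without beta-glucan 9 or 10 or control 12 or 13). Of the genes not called, Dnajb2 passed without beta-glucan 5, control 7 or control 12, and Pfdn6 without beta-glucan 5 or control 12.

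Other genes of the same processes, which the name rule does not take in, were read from lists. Of 35 cytosolic cochaperones and regulators, 10 are listed, 4 rose and 1 fell, with a median log2 fold change of 0.33. Of all listed genes 25.9% rose and 42.8% fell, with a median of -0.41, and the counts of these lists stand beside those shares. Ahsa1, which activates the ATPase of Hsp90, had 4422, 5475 and 7584 normalized counts in beta-glucan libraries and 1760, 2333 and 5699 in control libraries (0.92 ± 0.22, edgeR adjusted p = 0.0121), with control 12 the highest control. The tetratricopeptide repeat gene Ttc1 (0.37 ± 0.10, edgeR adjusted p = 0.0265) and the tubulin folding cofactors Tbcc (0.52 ± 0.16, edgeR adjusted p = 0.0399) and Tbcb (0.42 ± 0.13, edgeR adjusted p = 0.0418) rose, and a further tubulin cofactor, Tbce, fell (-0.32 ± 0.10, edgeR adjusted p = 0.0488). With 1 library left out between 1 and 7 of the list rose. The fewest rose without beta-glucan 8, beta-glucan 12 or control 3, and the most without control 12 or control 13. Without controls 2 and 3 0 rose (8 at an unadjusted p under 0.05, beside 2588 of 2748 listed genes in either direction). With DESeq2 on all libraries 8 rose.

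Of 20 genes of mitochondrial folding and the import motor, 5 are listed and 4 rose, with a median of 0.39, where 25.9% of all listed genes rose. The import channel gene Timm23 had 803, 1031 and 1206 normalized counts in beta-glucan libraries and 552, 652 and 850 in control libraries (0.60 ± 0.10, edgeR adjusted p = 0.00227). Its receptor Timm50 rose (0.49 ± 0.13, edgeR adjusted p = 0.0199), as did the prohibitin genes Phb2 (0.39 ± 0.10, edgeR adjusted p = 0.0218) and Phb (0.29 ± 0.09, edgeR adjusted p = 0.0399). Grpel1, the nucleotide exchange factor of Hspa9, had 0.36 ± 0.12 and did not pass (adjusted p = 0.0599). Without controls 2 and 3, or with the length trend removed, 1 of the list rose.

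Of 34 genes of ER folding and the unfolded protein response, 3 are listed and all 3 fell, with a median of -0.52. Falls were the more frequent call among the listed genes (42.8%, median -0.41), and nothing particular to the ER can be read from 3 genes. Herpud1, a membrane protein of ER-associated degradation, had 728, 868 and 995 normalized counts in beta-glucan libraries, against 1049, 1203 and 1810 in control libraries, with no overlap (-0.59 ± 0.12, edgeR adjusted p = 0.00548). Eif2ak3, the stress sensor PERK, had -0.52 ± 0.12 (edgeR adjusted p = 0.0115), and Uggt1, which checks the folding of glycoproteins, had -0.44 ± 0.13 (edgeR adjusted p = 0.0400). Without controls 2 and 3, 1 of the 3 fell.

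Among 20 immediate-early genes, 10 are listed, 6 fell and 1 (Atf3, 0.58 ± 0.16, edgeR adjusted p = 0.0245) rose, with a median log2 fold change of -1.22, where 42.8% of all listed genes fell and 25.9% rose. Fosb (-2.22 ± 0.53, edgeR adjusted p = 0.0120), Nfkbiz (-2.17 ± 0.52, edgeR adjusted p = 0.0123), Ier3 (-1.38 ± 0.34, edgeR adjusted p = 0.0141) and Kdm6b (-1.95 ± 0.52, edgeR adjusted p = 0.0218) had the smallest p of those that fell. Without control 2 alone 3 fell, and without controls 2 and 3 0 genes fell and 0 rose. In that last fit 5 and 1 had an unadjusted p under 0.05, beside 2588 of 2748 listed genes in either direction.

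Some of the values rest on genes that are hard to count apart. Hspd1 shares its promoter region with Hspe1 on the other strand, Dnaja1 overlaps Smu1, which is listed too (0.31), and Dnajb13 overlaps Ucp2. Whether the counting used strand is not given. Hspd1, Cct3, Tcp1, Dnaja1 and Hspa9 have named pseudogenes in the annotation, and the Hspd1 pseudogene Hspd1-ps3, which is listed, had 20.3 to 37.6 normalized counts in beta-glucan libraries and 12.1 to 23.4 in control libraries.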

How the data were processed

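RNA from 16 libraries was measured by RNA sequencing, and the deposited table gives every value used. The authors' read counts per gene are whole numbers without normalization; the submitters' processing notes name STAR 2.5, HTSeq 0.6.1, DESeq2 and mm10. The deposited normalized counts, a signal, are the counts divided by 1 size factor per library, and the deposited FPKM values are these per kilobase of gene length, scaled to 17937135 reads. The deposited log2 fold changes have beta-glucan on top. The deposited p-values are unadjusted and adjusted over 17130 genes, of which 3071 passed 0.05 and are listed; the other 14059 are not analysed here.

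Counts were tested in edgeR 4.0.16 (R 4.3.3; glmQLFit, glmQLFTest, filterByExpr, two-sided) with the deposited size factors times 17937135 as library sizes, over all 16 libraries, with Benjamini-Hochberg adjustment over 17130 genes and a threshold of 0.05. The fit was tested on simulated counts. Alternatives were DESeq2 1.42.0, TMM factors, no filter, the replicate number as a block, each library's gene length trend as an offset, and leaving out libraries; not blocking over the same 12 libraries was added after the data were seen. Over the 56 pairs of libraries within a group, counts differed by a chi-square of 11.3 to 208 per degree of freedom. No library therefore repeats the counts of another in its group. Pairs across the groups were not compared, and the check does not tell whether libraries shared RNA or a culture.

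The genes, compartments and lists were chosen with earlier results of these data known. Within each compartment and direction up to 4 genes with the smallest p are given in full, of each pathway list up to 4, and of each marker list the 2 most abundant. Tbce, Grpel1, Atf3 and Cd14 were named after their values were seen. Overlaps and gene types are those of GENCODE M21, which gave 24 of the 25 genes the same ends as the deposited table. Coordinates are the deposited ones. Tables and figures were made in Python 3.11.15 with pandas 2.3.3, numpy 2.4.6 and matplotlib 3.10.9.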

Additional observations from a re-analysis of the deposited data

Results flagged for a closer look

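In 50 sets of 8 values (25 genes in both groups), 1 library stood apart from the other 7 in 3, where chance flags about 1 in 20. For Bag3, beta-glucan 12 had 1725 normalized counts and the next beta-glucan library 1415, a gap of 0.620 of the range of that group (Dixon's test). For Dnajb2, beta-glucan 7 had 334 and the next beta-glucan library 261, a gap of 0.556. For Cct7, control 12 had 3018 and the next control 2654, a gap of 0.578. Bag3 and Cct7 stayed called in each of the 16 fits with 1 library left out.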

How the results depend on the processing

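Among the 25 genes, calls grew with DESeq2 (21 higher, 4 lower) and TMM factors (21 higher, 1 lower; TMM moved the listed median from -0.41 to -0.21), and shrank without controls 2 and 3 (7 higher, 0 lower) and with the length trend removed (11 higher, 1 lower; Dnaja2 then -0.0038 and Dnajc13 0.0169). The cause was not tested. Cytosolic calls were 5 higher and 0 lower without controls 2 and 3, 8 and 1 with the length trend removed and 1 lower with TMM; 1 ER gene was lower with DESeq2, and 2 mitochondrial genes were higher without controls 2 and 3. Of the listed genes, DESeq2 changed 2942 (1886 lower), TMM gave 529 lower, the length trend fit 416 higher, and without controls 2 and 3 629 changed (184 higher, 445 lower).

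The labels do not tell whether equal replicate numbers mark paired samples. Same-numbered libraries correlated at -0.18 to 0.46 over 6 numbers, and 1 number matched best with itself. That was number 5, at 0.46 against at most -0.04 with another number. With the replicate block over 12 libraries 0 of the 25 genes were higher or lower (also 0 cytosolic, mitochondrial and TRiC) and 355 listed genes changed (111 higher, 244 lower). With no block over the same 12 libraries 0 of the 25 and 68 listed genes changed (24 higher, 44 lower). These 12 lack controls 2 and 3 and beta-glucan 6 and 8. Whether the calls were lost through fewer libraries or through which ones were left out was not tested. In both fits 22 of the 25 had an unadjusted p under 0.05. So did 2201 (block) and 2198 (no block) of the 2741 listed genes, which had been selected by p in the same libraries.

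With 1 library left out, 14 to 20 of the 25 were higher and 1 to 3 lower (cytosolic 11 to 16 and 1 to 3, mitochondrial 3 to 4 higher, TRiC 5 to 6), and 1150 to 2276 listed genes changed (381 to 871 higher, 769 to 1405 lower), with fewest without control 2. The cochaperone list gave 8 higher and 0 lower with TMM, 8 and 2 with DESeq2, 8 higher without controls 12 and 13, 2 with the length trend removed, 0 and 0 without controls 2 and 3, 1 and 0 with the block, 0 and 0 without it, and 1 to 7 higher and 0 to 1 lower with 1 library left out. The ER list gave 1 lower with TMM, the block or no controls 2 and 3, 0 over the 12 libraries without the block, and 2 to 3 with 1 library left out. The mitochondrial list gave 1 higher with the block, length trend or no controls 2 and 3, 0 without the block, and 3 to 5 with 1 left out. Immediate-early genes gave 1 lower with the block, 0 without it and 0 without controls 2 and 3, with 0 higher in these and the length trend fit, and 3 to 9 lower and 0 to 1 higher with 1 left out. What depth limits was not tested.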
